A study of Mus musculus with 6 samples.

Results

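The comparison described here sets fibroblasts 7 days into induction toward parvalbumin neurons (iPV) against the mouse embryonic fibroblasts (MEF) from which such cells were made. It uses 2 of the 6 arrays of the series, 1 for each group, and all 22180 genes that had a probe set with 1 gene symbol. A gene with several such probe sets was read from the one that was brightest on average over the 6 arrays. Values are log2 intensities, so a difference of 1 is 2-fold. Before subtraction, lower values were set to a floor of 5.01, the median of the table without its control probe sets, and where MEF or day 7 lay under it the fold is given as "at least". Levels are given below as deposited and differences after the floor, day 7 minus MEF.

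Parvalbumin neurons are fast-spiking inhibitory interneurons. They make GABA with the enzymes Gad1 and Gad2, load it into vesicles through Slc32a1, and buffer calcium with parvalbumin (Pvalb). Embryonic fibroblasts are connective tissue cells that secrete collagens and the enzymes that remodel them, and direct reprogramming forces a new identity on such cells, usually by expressing transcription factors, without a stem cell stage.

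The day 7 cells were labelled as fibroblasts of PV-GFP transgenic C57BL/6 mice, taken from embryos of 13.5 days, infected with adenovirus and kept for 7 days under induction. The MEF sample had the same strain, transgene and embryo stage, and its record carries the same wording on infection as the induced samples. The labels do not name the genes that the virus carried, the number of embryos behind a culture, or any sorting of the day 7 cells. Unsorted induced cells at 3 and 14 days, of the same strain, transgene and stage, are given for context only. With 1 array in each group no difference has a replicate check, no test was possible, and every difference describes these 2 arrays. The number of arrays limits the precision.

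The arrays were alike in overall brightness. The median over non-control probe sets was 5.05 on the day 7 array and 5.06 on the MEF array, within a range of 4.96 to 5.06 over the 6 arrays. The control probe sets were less alike, with a median of 4.43 at day 7 and 4.64 in MEF. Genes above the floor numbered 12865 at day 7 and 12719 in MEF. The technical spread of a probe set's difference was estimated at 0.38 log2 units, from the disagreement between 2 probe sets of the same gene over 401 genes. It is a spread per probe set, not that of the gap between 2 probe sets, and it leaves out variation between cultures. A gene is called expressed below when its mean over the 6 arrays lay above the floor, which held for 12600 genes, with a median difference of 0.03.

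More genes were 2-fold higher than 2-fold lower at day 7, an excess that turned round after housekeeping centring. Of all 22180 genes, 376 (1.7%) were at least 2-fold higher at day 7 and 187 (0.843%) at least 2-fold lower. Among the 12600 expressed genes the counts were 375 higher (2.98%) and 181 lower (1.44%), and these are the shares against which the gene lists below are read. At least 4-fold, 74 genes were higher (0.334% of all genes) and 16 lower (0.0721%). Expressed genes made up all 74 of the higher (0.587%) and 15 of the lower ones (0.119%). Higher genes made up 66.8% of those at least 2-fold apart, but 26.2% (210 higher, 592 lower) when each array was centred on the median of its housekeeping genes. The median over expressed genes then became -0.29, because the housekeeping medians were 8.74 at day 7 and 8.41 in MEF. The 14 housekeeping genes' own differences had a median of -0.004, with 7 above 0 and 7 below, so they held no common shift. Values after this centring are given below to show how far a result depends on the setting. The genes nearest the threshold were Stxbp6 at 1.0 inside and Thoc3 at 0.997 outside for higher genes, and Dap at -1.001 inside and Rnd3 at -0.996 outside for lower genes.

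The 15 genes farthest above MEF at day 7 were at least 8.96-fold higher. Folh1, a membrane peptidase that hydrolyses folates and acetylaspartylglutamate, had 10.67 at day 7 and 4.32 in MEF, a difference of at least 50.4-fold. Gdf10, a secreted ligand of the TGF-beta superfamily, had 9.67 at day 7 and 5.30 in MEF, 20.7-fold higher. A2m, a broad protease inhibitor, had 9.60 and 5.63, 15.7-fold higher at day 7. The matrix proteins Spon2 (9.23 at day 7, 5.30 in MEF, 15.3-fold) and Sparcl1 (10.54 and 6.65, 14.8-fold) followed. Lrat, which esterifies retinol for storage, had 8.73 at day 7 and 4.18 in MEF, at least 13.2-fold. Angpt1, the ligand of the vascular receptor Tie2, was 11.2-fold higher, with 9.04 at day 7 and 5.56 in MEF, and Agtr2, an angiotensin II receptor, 10.7-fold higher, with 9.39 and 5.98. The lipid-scavenging receptor Olr1 had 9.56 at day 7 and 6.22 in MEF, and the protease inhibitor Pi15 had 9.73 and 6.52. The IGF-binding-protein protease Pappa2 had 9.11 at day 7 and 5.95 in MEF, and the drug-metabolising oxygenase Fmo2 8.67 and 5.44. Mup3, of the major urinary protein family, had 8.54 at day 7 and 4.72 in MEF. Its near-identical family members can share probes, so its identity is uncertain. The remaining genes among the first 15 were Hp and Calb2, given below. Except for Mup3, which was under the floor at 4.98, all 15 were above the floor after 3 days, with Folh1 at 9.58 and Angpt1 at 8.68.

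The 15 genes farthest below MEF at day 7 were at least 4.16-fold lower. Mmp13, an interstitial collagenase, had 6.72 at day 7 and 10.97 in MEF, 19.0-fold lower. Tnn (tenascin N), a matrix glycoprotein, had 5.37 at day 7 and 8.79 in MEF, 10.7-fold lower. The secreted protein C1qtnf3 had 7.25 and 9.83, and Loxl3, a lysyl oxidase that cross-links collagen, 7.88 and 10.36. The Wnt co-receptor Lgr5 had 7.44 at day 7 and 9.81 in MEF, 5.16-fold lower. The surface or secreted proteins Itgbl1 (5.03 at day 7, 7.57 in MEF), Cd109 (7.65, 9.95), Itga11 (7.70, 9.85) and Lrrc15 (7.13, 9.19) were 4.16 to 5.79-fold lower. Itga11 is a collagen-binding integrin chain. Fmod, a collagen-binding proteoglycan, was 4.79-fold lower, with 6.79 and 9.05, and its second probe set differed by -2.14. S100a4, a calcium-binding protein used as a fibroblast marker, had 5.48 at day 7 and 7.71 in MEF. The angiopoietin-like protein Angptl7 (5.89, 7.99), the autophagy protein Vmp1 (5.23, 7.29) and the cytokine receptor Il31ra (5.09, 7.22) were 4.18 to 4.37-fold lower, Il31ra being one of the few such genes whose mean over the 6 arrays lay under the floor. The lysosomal protease Ctss completes the first 15 and is given with the macrophage genes.

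**Figure D1:**
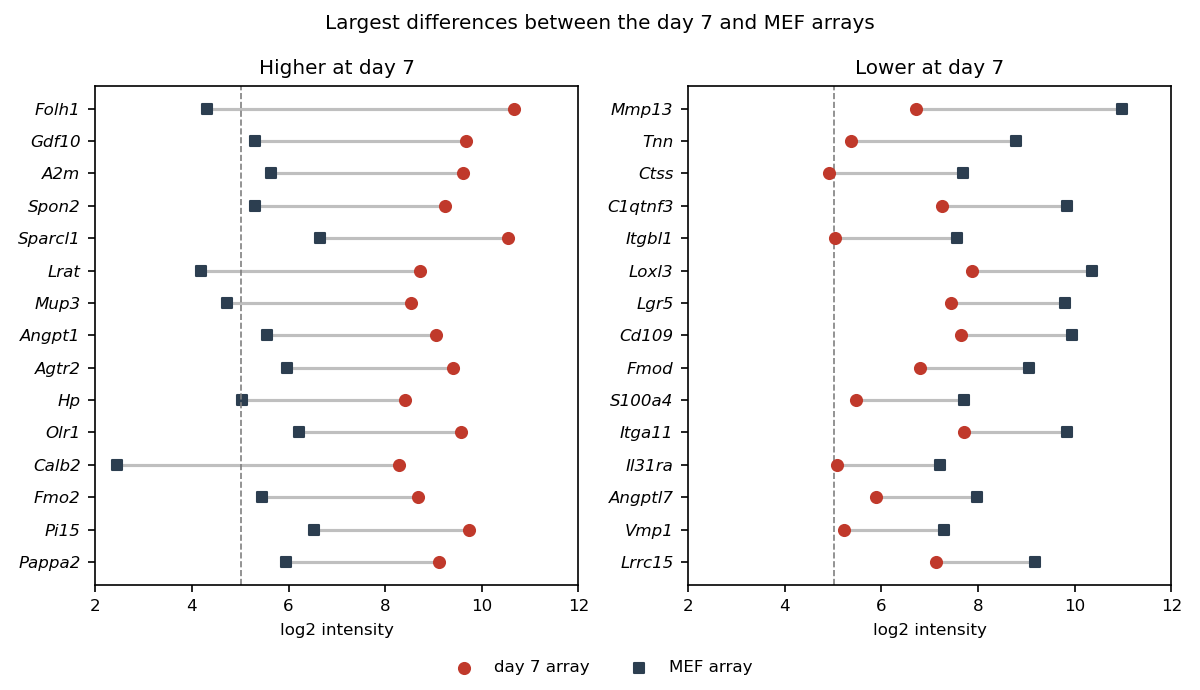
The 15 genes farthest above MEF at day 7 (left) and the 15 farthest below (right), each with its log2 intensity on the day 7 array (circle) and on the MEF array (square), 1 array each, and the floor as a dashed line. Folh1, Lrat, Mup3 and Calb2 lie under the floor in MEF and well above it at day 7, whereas most genes on the right stay above the floor on both arrays.

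The defining genes of GABA synthesis and transport were near or under the floor at day 7, as they were on the array labelled endogenous parvalbumin neurons. Neither array's label as parvalbumin neurons was borne out by these genes. They did not rise far above the floor on any of the 6 arrays. On the array of sorted PV-GFP+ cells Gad1 had 4.68, Gad2 4.49 and Slc32a1 4.46. No array thus shows that their probe sets can report these transcripts, so the low values cannot decide on the labels. Pvalb had 6.15 at day 7 and 5.23 in MEF, a difference of 0.92 that stays under the 2-fold threshold. Gad1 had 5.12 and 5.19, while Gad2 (4.62, 4.92) and Slc32a1 (4.91, 4.82) were under the floor on both arrays. The record of the array labelled endogenous parvalbumin neurons also gives embryos of 13.5 days. On that array Pvalb had 5.48, Gad1 5.13, Gad2 4.09 and Slc32a1 5.05. The fibroblast genes Col1a1 (12.34) and Vim (11.58) and the macrophage gene Lyz2 (10.05) were bright on it. Fewer cells of a type and less RNA per cell cannot be told apart in such bulk samples. Of 18 genes of the parvalbumin interneuron list on the array, 9 were expressed and none was 2-fold apart. Their median difference was 0.35, or 0.02 after housekeeping centring. The members farthest apart after Pvalb were the neurofilament chain Nefh (6.48 at day 7, 5.86 in MEF), the release regulator Cplx1 (6.16, 5.62) and the transcription factor Mef2c (5.66, 6.16). The 9 members under the floor on both arrays were the potassium channel genes Kcnc1, Kcna1 and Kcnc2, the sodium channel genes Scn1a and Scn4b, the receptor gene Erbb4, the transcription factor gene Sox6, the peptide gene Tac1 and the perineuronal net gene Acan.

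In the wider GABAergic list, 3 of 9 genes were expressed and 1 was 2-fold higher, with a median of 0.43. The median moved between 0.16 and 0.69 with the processing, over 1 to 4 genes. That gene, Abat, encodes the enzyme that breaks GABA down and had 7.26 at day 7 and 5.79 in MEF, while its second probe set was under the floor on both arrays (4.04, 4.46). Dlx2, a homeobox regulator of interneuron development, had 5.76 and 5.88. The list of other interneuron classes had 10 of 15 genes expressed, 2 at least 2-fold higher and 2 lower (list median 0.39, or 0.13 after housekeeping centring). Calb2, the calcium buffer calretinin of another interneuron class, had 8.28 at day 7 and 2.44 in MEF, at least 9.61-fold higher. The peptide precursor Cck had 8.71 and 7.11, 3.03-fold higher. The opioid peptide precursor Penk (5.48 at day 7, 6.94 in MEF) and the secreted factor Ndnf (5.34, 6.75) were lower. Calb2 already had 8.09 after 3 days, and Cck was higher at 3 days (10.06) than at 7.

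General neuronal genes showed a few isolated differences. Of 18 expressed pan-neuronal genes, 1 was at least 2-fold higher, and the median of 0.14 turned to -0.13 after housekeeping centring, with none 2-fold higher and 1 lower. That gene was the tubulin Tubb4a (7.55 at day 7, 6.47 in MEF). The neuronal tubulin Tubb3 had 6.17 at day 7 and 5.69 in MEF, the microtubule protein Map2 6.38 and 7.20, and the splicing factor Rbfox3 (NeuN) 5.76 and 5.71. Dcx, a marker of migrating young neurons, was under the floor on both arrays (4.04, 3.11). In the synaptic vesicle list 2 of 14 expressed genes were at least 2-fold higher, with a median of 0.40. After housekeeping centring the median was 0.08, 6 of the 14 were below MEF and 1 was 2-fold higher, Vamp2 being at 0.92. The 2 genes were Snap25, a SNARE protein of vesicle fusion, at 6.44 at day 7 and 4.44 in MEF, and its partner Vamp2, at 7.58 and 6.33. The priming factor Unc13a (6.40 at day 7, 5.53 in MEF) and the active-zone protein Rims1 (5.79, 5.03) were higher by less than 2-fold. Of 6 expressed transmitter receptor genes, Gabra3, a GABA-A receptor subunit, was 3.63-fold higher (7.53 at day 7, 5.67 in MEF). The median of that list was 0.34, or 0.06 after housekeeping centring.

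Channel, granule and glutamatergic genes were mostly within 2-fold, and regulators differed in both directions. None of 7 expressed channel genes was 2-fold apart (median 0.03, or -0.23 after housekeeping centring), and the calcium channel gene Cacna1c had 7.28 at day 7 and 8.16 in MEF. Of 6 expressed granin and dense-core granule genes 1 was 2-fold apart, Cpe, a peptide-processing carboxypeptidase, which was lower (8.34 at day 7, 9.79 in MEF). The median of that list was 0.50, or 0.18 after housekeeping centring. With the floor at percentile 75 it was -0.39, over the 2 genes still expressed. Both expressed glutamatergic genes were within 2-fold, the transcription factor Bcl11b at 5.96 and 6.55 and the kinase Camk2a at 5.77 and 5.32, with a median of -0.07, or -0.39 after housekeeping centring. Among 14 expressed proneural and Notch regulators, 3 were at least 2-fold higher and 2 lower (list median 0.17, or 0.00 after housekeeping centring). The higher ones were Id2 (9.17 at day 7, 6.70 in MEF) and Id3 (9.08, 7.48), which bind and block proneural basic helix-loop-helix factors, and the neuronal transcription factor Sox11 (6.13, 4.90). The lower ones were the Notch ligand Jag1 (7.46 at day 7, 8.60 in MEF) and the Notch effector Hes1 (6.56, 7.70). Rest, the repressor of neuronal genes, had 6.98 and 6.90. The splicing repressor Ptbp1 had 9.26 at day 7 and 8.79 in MEF, and its neural paralogue Ptbp2 8.32 and 7.66.

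**Figure D2:**
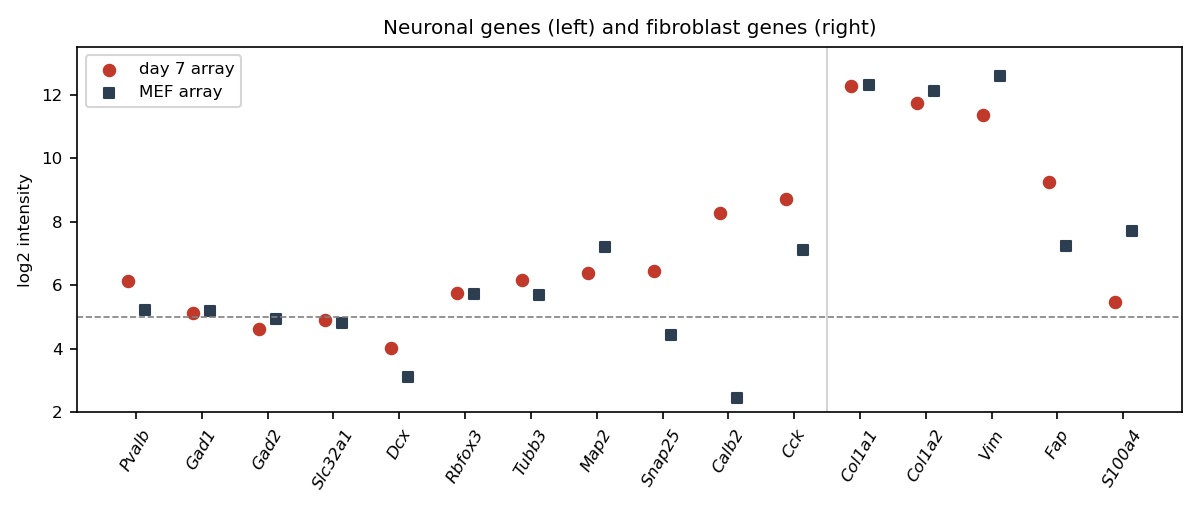
Log2 intensity of 11 neuronal genes (left of the grey line) and 5 fibroblast genes (right) on the day 7 array (circle) and the MEF array (square), with the floor as a dashed line. Gad1, Gad2, Slc32a1 and Dcx lie near or under the floor on both arrays, Snap25 and Calb2 leave it at day 7 only, and Col1a1, Col1a2 and Vim stay far above it on both.

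Fibroblast matrix genes stayed bright at day 7 while single members differed in both directions. The type I collagen chains Col1a1 (12.28 at day 7, 12.31 in MEF) and, by its brighter probe set, Col1a2 (11.74, 12.10) were within 2-fold. The second probe set of Col1a2 was more than 2-fold lower (7.69 at day 7, 8.93 in MEF, a difference of -1.24). Fibronectin, Fn1, was also within 2-fold (12.48, 13.14). Of 23 expressed collagens and matrix glycoproteins, 2 were at least 2-fold higher and 5 lower (list median -0.23, or -0.56 with 7 lower after housekeeping centring). The higher ones were Col14a1, a fibril-associated collagen, at 7.29 at day 7 and 4.86 in MEF, and the type III collagen Col3a1, at 12.19 and 10.83. The lower ones were Col6a3 (7.94 at day 7, 9.67 in MEF), tenascin C or Tnc (10.68, 12.11), Col8a1 (8.40, 9.67), the elastic fibre protein Fbln5 (8.74, 9.99) and Thbs1 (11.80, 12.94). Of 9 expressed small leucine-rich proteoglycans, which organise collagen fibrils, 1 was at least 2-fold higher and 3 lower (list median -0.28, or -0.61 after that centring). Ogn was higher (11.98 at day 7, 10.58 in MEF), Fmod and Aspn (10.44, 11.67) were lower, and Prelp was lower by its brighter probe set (9.53, 10.95) but not by its second (5.19, 5.12).

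Matrix-degrading enzymes and their inhibitors also differed in both directions. Of 19 expressed members 2 were at least 2-fold higher and 5 lower (list median -0.40, or -0.73 with 7 lower after housekeeping centring). Fap, a serine protease of activated fibroblasts, had 9.26 at day 7 and 7.23 in MEF, and the gelatinase Mmp9 7.31 and 5.76. Below MEF, besides Mmp13, were the cysteine protease Ctsk (5.73 at day 7, 7.20 in MEF), stromelysin Mmp3 (9.32, 10.64), the inhibitor Timp3 (9.65, 10.93) and the plasminogen activator Plat (8.26, 9.33). Of 17 expressed mesenchymal identity genes none was 2-fold higher and 2 were lower, S100a4 and the intermediate filament Vim (11.37 at day 7, 12.58 in MEF), with a median of -0.31. After housekeeping centring the median was -0.64 and 4 were lower. The second probe set of Vim differed by -2.70. The surface receptor Cd44 (7.10 at day 7, 8.04 in MEF) and the transcription factor Snai2 (9.29, 10.19) were lower by less than 2-fold. None of 14 expressed smooth muscle genes was 2-fold apart, and their median of 0.24 turned to -0.02 after housekeeping centring. Among 12 expressed YAP targets 1 was 2-fold apart, Ankrd1, a stress-responsive ankyrin repeat protein, at 9.69 at day 7 and 7.50 in MEF, and the list's median was -0.08, or -0.41 with 2 genes lower after housekeeping centring. Ankrd1 was higher still at 3 days (11.86) and 14 days (11.55).

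Acute-phase and complement genes were the list with the largest median among those with more than 2 expressed members. Of 11 expressed genes 9 were at least 2-fold higher and none lower. The list median was 2.37 and the range 0.15 to 3.36, so that every expressed member was above MEF. After housekeeping centring 9 were still at least 2-fold higher and 10 of the 11 above MEF. Haptoglobin (Hp), which binds free haemoglobin, had 8.40 at day 7 and 5.05 in MEF, 10.3-fold higher. Serum amyloid Saa3 had 13.13 and 10.12, 8.06-fold higher, and Steap4, an iron and copper reductase, 9.51 and 6.53, 7.89-fold higher. The iron-chelator carrier lipocalin 2, Lcn2, had 11.77 at day 7 and 8.98 in MEF. The antibacterial lectin Reg3g (9.12 at day 7, 6.73 in MEF), complement factor B or Cfb (8.17, 5.80) and the protease inhibitor Serpina3n (10.67, 8.45) followed. The complement inhibitor Serping1 (11.49 at day 7, 10.04 in MEF) and the copper oxidase ceruloplasmin, Cp (9.27, 7.91), were also at least 2-fold higher. The complement genes C4b (5.67, 4.71) and C1ra (6.17, 6.02) were within 2-fold. The list's median difference from MEF was 0.07 at 3 days, 2.37 at 7 days and 1.13 at 14 days. All 11 expressed members were lower at 3 days and at 14 days than at 7 days. Hp (6.34), Saa3 (12.54), Steap4 (8.49) and Lcn2 (10.99) were nevertheless at least 2-fold above MEF at 3 days already, while Serpina3n (7.84) and Reg3g were below it. At 14 days Hp (8.19) and Lcn2 (11.71) were close to their day 7 levels. Reg3g was higher at 7 days (9.12) than at 3 days (5.34) or 14 days (7.19).

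RefSeq promoters of 300 bases that span the start site, in build GRCm38.p6, were searched on both strands for the kappaB site, a binding sequence of the NF-kappaB factors that act in acute-phase induction. The motif was chosen after the values were seen. Its letters are not given here and varied between the matches shown, so a match marks a similar stretch and not a known binding site. It was found in 2 of the 9 acute-phase members with a promoter (22.2%), against 2581 of 27025 genes (9.55%). Both are shown because they are the matching members of the list with the largest difference, with the matches in capitals and overlapping matches counted apart. Steap4 lies at chr5:7960222-7960521 on the plus strand, and Reg3g at chr6:78468825-78469124 on the minus strand.
Steap4: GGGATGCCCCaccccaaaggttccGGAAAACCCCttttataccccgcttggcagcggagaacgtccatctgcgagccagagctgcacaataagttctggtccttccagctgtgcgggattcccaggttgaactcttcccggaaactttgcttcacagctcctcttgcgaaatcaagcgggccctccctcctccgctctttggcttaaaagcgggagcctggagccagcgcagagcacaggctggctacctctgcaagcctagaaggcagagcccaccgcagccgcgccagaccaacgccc
Reg3g: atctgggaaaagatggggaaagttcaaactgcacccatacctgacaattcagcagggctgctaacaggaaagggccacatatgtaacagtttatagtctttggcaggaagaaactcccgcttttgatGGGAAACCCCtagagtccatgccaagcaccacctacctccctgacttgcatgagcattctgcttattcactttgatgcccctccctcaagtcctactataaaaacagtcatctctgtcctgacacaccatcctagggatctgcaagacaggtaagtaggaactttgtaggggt

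Genes of cholesterol synthesis and uptake were above MEF together at day 7. All 19 expressed members were higher, 9 of them at least 2-fold and none 2-fold lower, with a median of 0.91 and a range of 0.01 to 2.05. Insig1, the sterol-responsive retention protein of the SREBP complex, had 9.81 at day 7 and 7.76 in MEF, 4.15-fold higher. The enzymes of the pathway that were at least 2-fold higher were Fdps (8.10 at day 7, 7.04 in MEF) and Fdft1 (9.36, 8.35), which build squalene, and Sqle (8.37, 7.19) and Lss (7.35, 6.00), which oxidise it and close the ring. The later enzymes Cyp51 (8.35 at day 7, 7.19 in MEF), Msmo1 (8.48, 7.13), Nsdhl (9.09, 7.95) and Hsd17b7 (7.32, 6.26) were also at least 2-fold higher. Hmgcs1, an early synthase, had 10.02 at day 7 and 9.11 in MEF, and the transcription factor gene Srebf2 8.77 and 8.07. The list's median difference from MEF was -0.33 at 3 days, 0.91 at 7 days and -0.07 at 14 days. After housekeeping centring the day 7 median was 0.58, 15 of the 19 members were above MEF and 3 at least 2-fold.

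Of 11 expressed fatty acid synthesis genes, 3 were at least 2-fold higher than in MEF and none was 2-fold lower, with a median of 0.46. The lowest member was at -0.06. Housekeeping centring gave a median of 0.13, with 4 of the 11 below MEF and 2 at least 2-fold higher, Fads1 being at 0.69. Without that centring the desaturases Fads2 (10.28 at day 7, 8.26 in MEF), Scd1 (10.52, 8.67) and Fads1 (9.84, 8.82) made up the 3, while fatty acid synthase, Fasn, had 8.28 and 7.47. In a list of sterol efflux genes and targets of the oxysterol receptor LXR, added after the values were seen, 1 of 9 expressed was at least 2-fold higher and 1 lower. The median was 0.05, or -0.28 after housekeeping centring. The apolipoprotein Apoc1 had 6.90 at day 7 and 5.51 in MEF, and Mylip, a ligase that degrades the LDL receptor, 7.91 and 8.95.

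A sterol regulatory element, the letters TCACNCCAC on either strand, was found in the promoter of 1 of 15 cholesterol list members (6.67%), against 388 of 27025 genes (1.44%). The matching member was Hmgcs1, at chr13:119690101-119690400 on the plus strand, shown with the element in capitals as the only member of the list that held it.
Hmgcs1: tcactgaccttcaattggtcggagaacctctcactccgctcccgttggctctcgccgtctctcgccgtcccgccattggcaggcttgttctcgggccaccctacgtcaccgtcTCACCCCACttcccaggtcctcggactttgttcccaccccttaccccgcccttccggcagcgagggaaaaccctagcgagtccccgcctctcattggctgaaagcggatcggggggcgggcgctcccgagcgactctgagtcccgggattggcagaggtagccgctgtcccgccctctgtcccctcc

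Interferon-stimulated genes differed from MEF through a few members. Of 27 expressed, 4 were at least 2-fold higher and none lower, and the median of 0.23 turned to -0.10 after housekeeping centring. Bst2 (tetherin), which holds budding viruses at the cell surface, had 9.91 at day 7 and 7.95 in MEF, 3.88-fold higher. Irf7, a transcription factor of the interferon response, had 8.17 and 6.58, and Usp18, which removes ISG15 from proteins, 8.08 and 6.69. Oasl1, a member of the oligoadenylate synthetase family, had 6.32 at day 7 and 4.95 in MEF, at least 2.48-fold higher. The chemokine Cxcl10 (6.86 at day 7, 5.92 in MEF) and the antiviral protein Ifit1 (7.81, 6.91) were higher by less than 2-fold, and Mx1 was under the floor on both arrays. The list's median difference from MEF was 0.49 at 3 days, 0.23 at 7 days and 0.91 at 14 days. No MHC class I gene of 13 expressed was 2-fold apart, with a median of 0.36, or 0.03 after housekeeping centring. H2-K1 had 8.94 at day 7 and 8.27 in MEF.

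Among 16 expressed chemokines and cytokines, 3 were at least 2-fold higher and 1 lower, and the median of 0.14 turned to -0.19 after housekeeping centring, with 2 higher, Il6 being at 0.92. The alarmin Il33 (7.51 at day 7, 5.63 in MEF), the neutrophil-attracting chemokine Cxcl5 (11.44, 9.90) and the cytokine Il6 (7.84, 6.59) were higher. The chemokine Ccl20 was lower (6.00, 7.14).

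The core of the interferon-stimulated response element, a pair of GAAA repeats separated by any 2 bases and read on either strand, was found in the promoters of 12 of 20 list members (60%), against 1079 of 27025 genes (3.99%). The promoters of Bst2 at chr8:71537423-71537722 and Cxcl10 at chr5:92348840-92349139, both on the minus strand, are shown as 2 of the 3 matching members with the largest differences. Capitals mark the matches, and those of Bst2 overlap.
Bst2: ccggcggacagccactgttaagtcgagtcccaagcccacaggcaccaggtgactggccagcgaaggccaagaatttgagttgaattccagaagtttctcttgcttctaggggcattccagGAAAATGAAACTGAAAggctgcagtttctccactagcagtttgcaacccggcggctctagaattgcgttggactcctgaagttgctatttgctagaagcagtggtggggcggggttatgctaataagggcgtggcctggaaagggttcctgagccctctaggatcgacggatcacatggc
Cxcl10: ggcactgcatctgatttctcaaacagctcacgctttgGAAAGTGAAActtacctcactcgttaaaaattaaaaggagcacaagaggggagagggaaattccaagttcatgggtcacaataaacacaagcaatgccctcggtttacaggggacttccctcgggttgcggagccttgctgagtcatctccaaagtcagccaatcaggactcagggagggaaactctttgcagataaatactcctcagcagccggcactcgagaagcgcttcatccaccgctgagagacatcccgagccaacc

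Genes of mitosis stood at the MEF level on the day 7 array and below it on the arrays of the earlier and later time. None of 24 expressed members was 2-fold apart from MEF, with a median of -0.01 and a range of -0.71 to 0.64, and after housekeeping centring the median was -0.34 and 1 member was 2-fold lower. The median difference from MEF was -1.35 at 3 days, -0.01 at 7 days and -1.37 at 14 days. All 24 members were higher at 7 days than at 3 days, 20 of them at least 2-fold, and all 24 were higher at 7 days than at 14 days, 19 of them at least 2-fold. Mki67, the antigen of cycling cells, had 9.31 in MEF, 7.24 at 3 days, 8.85 at 7 days and 7.14 at 14 days. Cyclin A2, Ccna2, had 7.91 in MEF, 6.41 at 3 days, 8.55 at 7 days and 7.02 at 14 days. The mitotic kinase Plk1 had 7.95 at day 7 and 7.36 in MEF, and the spindle checkpoint kinase Ttk 6.40 and 6.99. The kinetochore motor Cenpe had 7.25 at day 7 and 7.96 in MEF, and the kinetochore protein Cenpf 6.27 and 6.81. Topoisomerase Top2a was 8.47 and 8.51.

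Of 22 expressed S phase genes 1 was at least 2-fold higher, with a median of 0.05, or -0.28 after housekeeping centring. It was thymidylate synthase, Tyms (7.44 at day 7, 6.33 in MEF), while the replication clamp Pcna had 8.32 and 7.78. The list's median difference from MEF was -0.57 at 3 days, 0.05 at 7 days and -0.50 at 14 days. None of 18 expressed p53 response genes was 2-fold apart (median 0.05, or -0.28 after housekeeping centring). The leucine sensor Sesn2 had 7.31 at day 7 and 6.38 in MEF.

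The cell cycle homology region TTTGAA, which many late cell cycle promoters carry near the start site, was found on either strand in 16 of 21 mitosis members with a promoter (76.2%), against 5466 of 27025 genes (20.2%). The letters CCAAT were found in 17 of the 21 (81.0%), against 11096 genes (41.1%). Promoters of 3 members are shown with the cell cycle homology region in capitals, read as TTTGAA or, on the other strand, TTCAAA. Plk1 lies at chr7:122159185-122159484 on the plus strand, Ttk at chr9:83834439-83834738 on the plus strand and Cenpf at chr1:189688037-189688336 on the minus strand.
Plk1: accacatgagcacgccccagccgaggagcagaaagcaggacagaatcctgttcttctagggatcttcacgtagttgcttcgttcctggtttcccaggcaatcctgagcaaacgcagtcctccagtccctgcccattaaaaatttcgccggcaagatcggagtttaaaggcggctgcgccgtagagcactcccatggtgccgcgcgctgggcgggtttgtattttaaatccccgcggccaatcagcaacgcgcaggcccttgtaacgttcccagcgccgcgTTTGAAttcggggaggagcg
Ttk: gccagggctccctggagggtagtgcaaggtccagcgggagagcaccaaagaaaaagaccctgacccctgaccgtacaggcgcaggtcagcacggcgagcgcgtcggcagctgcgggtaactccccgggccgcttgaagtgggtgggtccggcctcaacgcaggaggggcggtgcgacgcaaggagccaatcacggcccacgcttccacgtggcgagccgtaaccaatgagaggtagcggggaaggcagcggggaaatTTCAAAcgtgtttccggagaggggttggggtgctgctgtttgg
Cenpf: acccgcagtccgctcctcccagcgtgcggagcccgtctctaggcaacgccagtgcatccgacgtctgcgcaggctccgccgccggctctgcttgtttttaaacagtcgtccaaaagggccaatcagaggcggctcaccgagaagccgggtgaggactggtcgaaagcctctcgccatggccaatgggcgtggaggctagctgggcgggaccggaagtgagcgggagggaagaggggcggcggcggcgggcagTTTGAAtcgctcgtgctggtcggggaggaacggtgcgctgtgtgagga

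**Figure D3:**
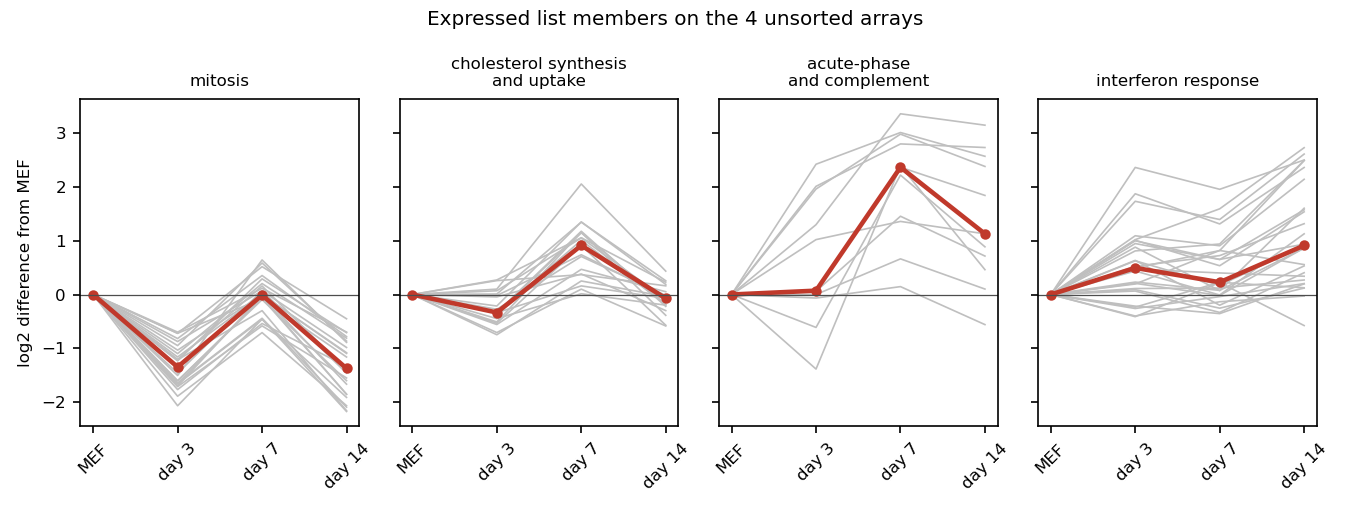
Log2 difference from MEF of the expressed members of 4 gene lists on the unsorted arrays, in the order MEF, 3 days, 7 days and 14 days, 1 grey line for each member and the list's median in red. The cholesterol and acute-phase medians are highest at 7 days (0.91 and 2.37), the mitosis median is near 0 at 7 days and below -1 at 3 and 14 days, and the interferon median is highest at 14 days. The differences share the MEF array.

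Of all 22180 genes, 31 were at least 2-fold higher at day 7 than on each of the MEF, 3 day and 14 day arrays. Another 4 were at least 2-fold lower than on each of them. The 31 genes held 7 of the 19 expressed genes of the cholesterol list, namely Insig1, Sqle, Msmo1, Cyp51, Nsdhl, Lss and Fdft1. Some of the 31 were brighter than at day 7 on the array labelled endogenous parvalbumin neurons, such as Reg3g. Kng2 was brighter on the array of sorted PV-GFP+ cells. The 7 cholesterol genes were brighter at day 7 than on either of those arrays. The gene with the widest margin was Apln, a secreted ligand of a vascular G protein-coupled receptor, at 5.10 in MEF, 5.27 at 3 days, 7.37 at 7 days and 5.32 at 14 days. The serine protease-like gene Prss35 had 5.50 in MEF, 5.75 at 3 days, 8.61 at 7 days and 6.58 at 14 days. The histone genes H2ax, H2ac10 and H2ac20 were also among the 31. H2ax had 7.58 in MEF, 7.26 at 3 days, 9.19 at 7 days and 7.77 at 14 days. The 4 genes below were Hes1, Mllt3, Acot2 and 2610005L07Rik. Hes1 had 7.70 in MEF, 7.71 at 3 days, 6.56 at 7 days and 7.57 at 14 days.

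Most glycolysis and respiratory chain genes were within 2-fold. Of 15 expressed glycolysis genes 3 were at least 2-fold higher and none lower (list median 0.60). Housekeeping centring gave a median of 0.27, with 5 of the 15 below MEF and 2 at least 2-fold higher, Slc16a3 being at 0.77. The 3 genes were the phosphofructokinase subunit Pfkl (8.69 at day 7, 6.89 in MEF), hexokinase Hk2 (7.50, 6.05) and the lactate exporter Slc16a3 (8.05, 6.95). Of 28 expressed respiratory chain genes 1 was at least 2-fold higher, Ndufa4 (10.34 at day 7, 9.27 in MEF), with a list median of 0.38, or 0.05 with none 2-fold higher after housekeeping centring. Txnip, a glucose-responsive inhibitor of glucose uptake, had 11.75 in MEF, 5.19 at 3 days, 10.48 at 7 days and 10.18 at 14 days, so its day 7 level was 2.42-fold below MEF. Its relative Arrdc4 had 9.01 at day 7 and 8.46 in MEF. A strict form of the carbohydrate response element, 2 exact CACGTG boxes separated by any 5 bases, was found in 0 of 27025 promoters of this length. A pattern that matched no promoter cannot tell whether that of Txnip holds a looser form of the element.

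Stress response genes were within 2-fold of MEF, while 5 of 19 immediate early genes were not, 4 of them lower. None of 17 expressed genes of the unfolded protein and integrated stress responses was 2-fold apart, with a median of -0.11, or -0.43 after housekeeping centring. The list's median difference from MEF was 0.75 at 3 days and 0.32 at 14 days. The stress factor Atf5 had 8.09 at day 7 and 7.16 in MEF. The 19 expressed immediate early genes had 1 at least 2-fold higher and 4 lower (list median -0.12, or -0.45 with 5 lower after that centring), against 2.98% higher and 1.44% lower over all expressed genes. The transcription factors Egr1 (5.69 at day 7, 7.13 in MEF) and Fos (5.48, 6.60) and the phosphatases Dusp1 (7.62, 8.85) and Dusp6 (6.73, 7.82) were lower. The orphan receptor Nr4a3 was higher (6.35 at day 7, 4.97 in MEF).

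Growth factor genes and their binding proteins differed in both directions. Of 25 expressed genes of TGF-beta, BMP and IGF signalling, 6 were at least 2-fold higher and 2 lower (list median 0.39, or 0.06 after housekeeping centring). The ligands Bmp7 (7.32 at day 7, 5.44 in MEF), Bmp6 (6.47, 5.003) and Tgfb2 (8.93, 7.34) were higher, and the ligand Tgfb3 was lower (8.29, 9.99). The IGF-binding proteins Igfbp5 (10.08 at day 7, 7.94 in MEF), Igfbp2 (7.63, 6.00) and Igfbp4 (10.20, 8.80) were higher. The BMP antagonist Grem1 was lower (8.46, 9.66). Among 24 expressed Wnt genes 3 were at least 2-fold higher than in MEF and 3 at least 2-fold lower (list median 0.44). After housekeeping centring the median was 0.11, with 1 at least 2-fold higher and 3 at least 2-fold lower. The ligands Wnt4 (6.78 at day 7, 5.41 in MEF) and Wnt5a (8.01, 6.80) and the secreted antagonist Sfrp1 (11.68, 10.59) were higher. Lgr5, its ligand Rspo2 (5.40 at day 7, 7.33 in MEF) and the target Ccn5 (7.75, 8.88) were lower. Of 25 expressed Hox genes, which encode position along the body, 2 were at least 2-fold higher, Hoxa5 (6.95 at day 7, 5.48 in MEF) and Hoxc8 (8.79, 7.68), and 1 lower, Hoxd13 (5.40, 6.53), with a median of 0.43. After housekeeping centring the median was 0.10, with 1 higher and 2 lower, Hoxc8 being at 0.78 and Hoxa13 at -1.20.

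Lists of retinoid genes, flavin monooxygenases and angiopoietins were added after the values were seen and describe genes noticed there. Of 13 expressed retinoid genes 6 were at least 2-fold higher and none lower (list median 0.77, or 0.45 with 6 higher and 1 lower after housekeeping centring). Besides Lrat they were the retinal reductase Dhrs3 (10.32 at day 7, 7.49 in MEF), the retinoic acid receptor Rarb (7.25, 4.74), the retinoic acid hydroxylase Cyp26b1 (8.80, 6.77), the retinol transporter Stra6 (6.58, 5.15) and the carrier Crabp2 (8.98, 7.61). The related carrier Crabp1 had 9.17 at day 7 and 9.93 in MEF. Of 2 expressed flavin monooxygenases Fmo2 was the one 2-fold higher, and Fmo1 had 5.92 and 5.11, giving a median of 2.02. Among 12 expressed angiopoietins, VEGFs and receptors, 2 were at least 2-fold higher (Angpt1 and Angpt4, the second with 7.30 at day 7 and 5.68 in MEF). Another 2 were lower (Angptl7 and Angptl4, the second with 7.01 and 8.49), and the median of 0.28 turned to -0.04 after housekeeping centring.

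**Figure D4:**
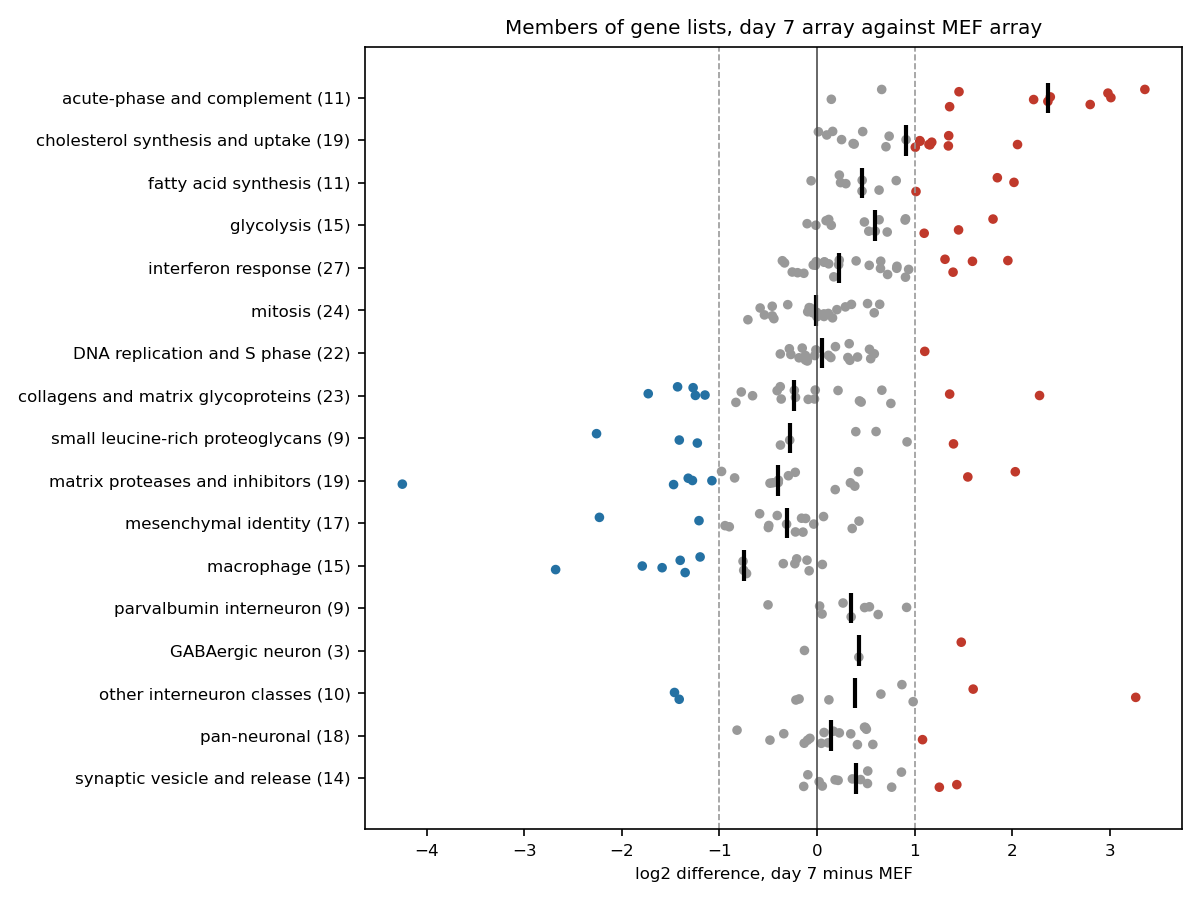
Log2 difference, day 7 minus MEF, of every expressed member of 17 gene lists, with the number of members in brackets. Points are single genes, red where at least 2-fold higher at day 7, blue where at least 2-fold lower and grey otherwise, black bars are list medians, and dashed lines mark 2-fold. Acute-phase genes reach 3.36 and matrix proteases -4.25, and the mitosis points all lie within 2-fold.

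Markers of other cells that a fibroblast culture can hold were examined for their whole lists. Of 15 expressed macrophage genes none was 2-fold higher and 6 were at least 2-fold lower, 14 of the 15 were below MEF, and the median was -0.75. After housekeeping centring 9 were at least 2-fold lower. The summed linear intensity of all 19 macrophage genes on the array, taken without the floor, was 1121 at day 7 and 2576 in MEF. The lysosomal protease Ctss had 4.91 at day 7 and 7.69 in MEF, and lysozyme, Lyz2, 7.99 and 9.78. The Fc receptor chain Fcer1g (6.73 at day 7, 8.32 in MEF), the macrophage surface receptor Adgre1 (5.66, 7.06), Cd68 (6.32, 7.67) and the scavenger receptor Msr1 (4.69, 6.21) were also lower, while Aif1 and Ptprc were under the floor on both arrays. The part of such cells in the lower protease and higher acute-phase values was not tested. Of 3 expressed endothelial genes 2 were at least 2-fold lower, the VEGF receptors Flt1 (6.25 at day 7, 7.85 in MEF) and Kdr (5.29, 6.45), and the list's median was -1.17. The defining marker Pecam1 was under the floor on both arrays (4.87, 4.76), and the list's summed linear intensity was 414 at day 7 and 649 in MEF.

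Markers of glia, muscle and epithelium did not separate the arrays by 2-fold. No expressed gene of the astrocyte list (6, median 0.02), the oligodendrocyte and Schwann cell list (4, median 0.02), the skeletal muscle list (6, median -0.04) or the epithelial list (4, median 0.11) was 2-fold apart. After housekeeping centring these medians were, in the same order, -0.31, -0.22, -0.34 and -0.15. The astrocyte gene Ndrg2 had 7.75 at day 7 and 7.11 in MEF, and the myelin gene Cldn11 6.42 and 5.60. Of 10 expressed adipocyte genes 2 were at least 2-fold higher than in MEF and 1 at least 2-fold lower. The median of 0.20 turned to -0.11 after housekeeping centring. The triglyceride synthase Dgat2 had 6.94 at day 7 and 4.83 in MEF, and the fatty acid carrier Fabp4 9.81 and 8.33. The fatty acid transporter Cd36 was lower (6.33 at day 7, 7.34 in MEF). The adipocyte regulator Pparg had 5.59 and 4.81.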

How the data were processed

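Total RNA labelled with biotin (6 µg to start) was hybridised to Affymetrix arrays, according to the labels. The deposited table by the authors held values on a log2 scale, as judged from their range, for 6 arrays. Affymetrix Expression Console appears in the submitters' processing notes. Its version, the summarisation algorithm and the build are not stated there, so how background was removed and arrays were scaled is unknown.

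The table held 41345 probe sets, of which 5333 were controls, 23521 had 1 gene symbol, 1814 had several and 10677 were unnamed. Names came from the platform annotation, and 23328 Entrez identifiers were found in RefSeq GRCm38.p6, which changed 0 symbols. Of 22180 genes 1082 had several probe sets. Python 3.11.15, numpy 2.4.6, pandas 2.3.3 and scipy 1.17.1 were used. Called genes differed by 2-fold or more after the floor, and no p-value was computed.

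The comparison, its 39 gene lists and 4 added lists were chosen with earlier results of these data known. Named genes were the 15 farthest apart in each direction (predicted genes and genes whose probe sets disagree left out), up to 4 members of each list with the largest difference, and preset genes. Other list members past 2-fold, and the genes highest or lowest on the day 7 array among the unsorted arrays, were named after their values were seen. Some list genes are not analysed here. Alternatives were quantile normalization, housekeeping centring, the mean of probe sets, no floor, a floor at percentile 75, a 4-fold threshold and, added after seeing the data, a filter keeping genes above the floor on either array. The counting step was tested on simulated data.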

Additional observations from a re-analysis of the deposited data

Results flagged for a closer look

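Egr1, an early response transcription factor, differed from MEF in opposite directions at 2 times. Its day 7 minus MEF difference was -1.44 (5.69 at 7 days, 7.13 in MEF), and its day 14 minus MEF difference was 1.20 (8.33 at 14 days). The values share 1 MEF array, and the difference between the times was not tested.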

How the results depend on the processing

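Of 108 named genes at least 2-fold apart, the number still 2-fold apart in the same direction was 107 under quantile normalization, 98 under housekeeping centring, 106 with the mean of probe sets, 108 with no floor and 74 with the floor at percentile 75. Counts of higher and lower genes were 210 and 592 under housekeeping centring, 225 and 119 with the floor at percentile 75, 74 and 16 at 4-fold, and 483 and 297 with no floor. The GABAergic median, 0.43 over 3 expressed genes, was 0.69 over 3 with no floor, 0.16 over 4 under quantile normalization, 0.68 for the 1 gene left with the floor at percentile 75 and 0.18 over 4 with the filter on either array, which was added after seeing the data. Its members thus changed with the setting. Housekeeping centring gave medians of 0.0218 for the parvalbumin list, -0.13 for pan-neuronal genes, -0.56 for collagens, -0.28 for S phase, -0.34 for mitosis, 0.58 for cholesterol, -0.10 for interferon and -1.08 for macrophage genes. It also turned the medians of smooth muscle (-0.0165), chemokines (-0.19), adipocyte (-0.11) and angiopoietin genes (-0.0432) below 0. The floor at percentile 75 gave -0.39 for granins (2 genes left of 6), -0.37 for collagens, 0.34 for S phase, 1.06 for cholesterol and -1.59 for macrophage genes. Other causes were not tested. Differences of genes near the floor are limited by signal over background. No paired analysis was possible because each group has 1 array and no replicate numbers.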

Other observations

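Genes linked to the sex chromosomes were present on both arrays. Xist, the RNA that silences an X chromosome, had 8.12 at day 7 and 8.95 in MEF. The Y-linked genes Eif2s3y (7.48 at day 7, 7.61 in MEF), Kdm5d (6.14, 5.45) and Uty (6.65, 7.03) were above the floor on both arrays. None of these genes was 2-fold apart, and the number and sex of the embryos behind each culture are not given in the labels.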
